A study of Homo sapiens with 4 samples.

Results

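A set of 8 genes of the cerebellar granule neuron lineage was examined in Daoy cells, an established line from a human medulloblastoma: ZIC1, ZIC2, ZIC4 and ZIC5 of the ZIC zinc finger family, and the factors ATOH1, BARHL1, NHLH1 and NHLH2. They were taken by symbol and are 8 of 58174 genes in the files. RNA-seq libraries of total RNA came from 2 EED-knockout and 2 wild type samples of the line, and EED genotype is the only difference that the labels give. The labels do not say whether libraries of 1 genotype came from separate clones or cultures, how the knockout was made, or whether the wild type cells carried a control construct, so the error behind each p-value is the spread among these 4 libraries and may be technical only.

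Granule neurons are born from progenitors that leave the rhombic lip and multiply in the outer layer of the developing cerebellum, and this progenitor is regarded as the cell of origin of hedgehog-driven medulloblastoma. ATOH1, a basic helix-loop-helix (bHLH) activator, starts that lineage in the mouse, and BARHL1, a homeodomain factor, and the bHLH factors NHLH1 and NHLH2 appear after it as granule cells mature. ZIC proteins share a block of zinc fingers with the GLI effectors of hedgehog signalling, and mouse Zic1 keeps granule progenitors dividing. EED belongs to the core of PRC2, the Polycomb enzyme that methylates histone H3 at K27 and keeps many developmental factors silent, often where their promoters are rich in CpG, so the comparison asks whether their RNA differs in cells labelled EED-knockout.

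The libraries held 17836112 to 19106382 estimated counts. EED itself stood at 17.9 and 26.2 CPM (counts relative to library size, scaled with TMM factors) in EED-knockout libraries 1 and 2, against 34.5 and 27.6 CPM in wild type libraries 1 and 2. Both knockout values of EED lay below both wild type values, as for 18.0% of all tested genes. EED did not pass the threshold of edgeR's quasi-likelihood F test (log2 fold change -0.49, 95% interval -1.12 to 0.13, adjusted p = 0.878). The 95% Poisson intervals, which cover counting error only, overlapped between EED-knockout 2 (23.9 to 28.6 CPM) and wild type 2 (25.3 to 30.2 CPM). EED-knockout 1 stood further from the wild type mean than EED-knockout 2. The median absolute difference over tested genes was 0.332 against 0.269 on the log2 scale. Each wild type library was at 0.133, but helps to form that mean, which draws its value down. It is therefore no baseline for the knockout libraries. In bulk RNA, fewer cells that express a gene and less RNA per cell cannot be told apart.

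The promoters of the most abundant members, ZIC1 and ZIC2, are shown beside those of ATOH1, which had no count, and BARHL1, which had at most 8, because both expressed and silent genes carried CpG-rich sequence. Each run is the 250 bases before the RefSeq start, 5′ to 3′ on the gene's strand (plus for all 4; GRCh38.p14), with CpG dinucleotides in capitals. They lie at chr3:147409115-147409364 (ZIC1), chr13:99981534-99981783 (ZIC2), chr4:93828503-93828752 (ATOH1) and chr9:132582356-132582605 (BARHL1).
ZIC1: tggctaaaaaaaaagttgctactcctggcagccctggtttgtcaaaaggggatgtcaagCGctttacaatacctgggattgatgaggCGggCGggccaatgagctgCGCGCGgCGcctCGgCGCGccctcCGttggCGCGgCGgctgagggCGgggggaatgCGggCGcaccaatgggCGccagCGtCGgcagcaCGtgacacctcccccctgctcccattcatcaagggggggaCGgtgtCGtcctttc
ZIC2: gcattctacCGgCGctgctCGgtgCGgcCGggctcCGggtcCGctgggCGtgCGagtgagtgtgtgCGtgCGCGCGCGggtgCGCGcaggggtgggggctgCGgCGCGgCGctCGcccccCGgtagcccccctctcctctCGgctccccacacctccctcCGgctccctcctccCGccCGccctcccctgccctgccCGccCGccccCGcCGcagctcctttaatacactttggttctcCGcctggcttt
ATOH1: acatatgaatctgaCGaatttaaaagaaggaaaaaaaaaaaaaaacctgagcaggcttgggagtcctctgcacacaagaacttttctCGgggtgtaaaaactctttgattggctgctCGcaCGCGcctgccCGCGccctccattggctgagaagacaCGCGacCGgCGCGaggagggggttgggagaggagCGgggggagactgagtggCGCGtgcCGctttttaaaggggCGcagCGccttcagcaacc
BARHL1: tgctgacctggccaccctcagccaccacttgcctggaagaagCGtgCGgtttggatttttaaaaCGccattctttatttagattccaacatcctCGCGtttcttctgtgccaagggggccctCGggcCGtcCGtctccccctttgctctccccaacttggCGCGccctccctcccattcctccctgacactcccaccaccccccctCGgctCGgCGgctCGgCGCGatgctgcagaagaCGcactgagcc
These held 23 CpG in ZIC1, 31 in ZIC2, 18 in ATOH1 and 17 in BARHL1. Over windows from 250 bases before to 50 after each start, RefSeq gave 14 windows for the 8 genes, some of them overlapping, and 35116 in all. The windows of ZIC1, ZIC2, ATOH1 and BARHL1 held 26, 35, 22 and 19 CpG, in that order, where the median of all windows was 14. NHLH1 held 4, and the windows of NHLH2 held 1 and 4. Neither NHLH2 window covers the GENCODE start of NHLH2-001, at 115843917, the transcript with 65.2% to 89.5% of NHLH2 counts. The sequence at that start was not examined. In all, 7 of the 14 windows, at least 1 from each ZIC gene and those of ATOH1 and BARHL1, had a CpG observed-to-expected ratio of at least 0.6 with GC content of at least 50%, as had 46.9% of all windows. The E-box letters CAGCTG, a core to which bHLH factors bind and which reads the same on both strands, were found in 2 of the 14 windows, 1 of ZIC4 and 1 of NHLH2, against 17.9% of all windows.

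**Figure D1:**
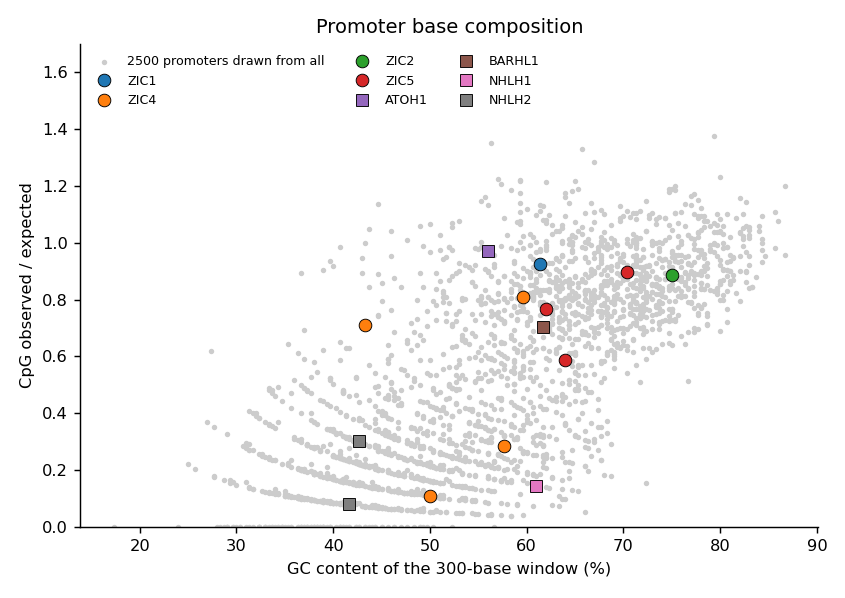
GC content (horizontal axis, percent) against the CpG observed-to-expected ratio (vertical axis) of 300-base promoter windows; coloured points are the windows of the 8 genes and grey points are 2500 windows drawn from all 35116. ATOH1 has a ratio of 0.971 beside 0.925 for ZIC1, while NHLH1 and both NHLH2 windows lie at 0.302 or below. The NHLH2 windows do not cover the start of NHLH2-001, its most abundant transcript by counts.

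ATOH1, the factor at the head of the lineage, was not detected in either genotype. It had 0 counts in all 4 libraries, which at 3 counts per library allows up to 0.158 CPM in EED-knockout 1, 0.165 in EED-knockout 2, 0.157 in wild type 1 and 0.168 in wild type 2 of the library totals. The gene (ENSG00000172238; chromosome 4, 93828753 to 93830964, plus strand, GRCh38) has a single exon, and none of its 31-base words occurs in another gene's transcripts. BARHL1 (ENSG00000125492; chromosome 9, 132582185 to 132590266) was near that limit, with 7 and 5 counts in EED-knockout libraries 1 and 2, against 8 and 1 in wild type libraries 1 and 2. The BARHL1 genotypes overlap. Neither ATOH1 nor BARHL1 passed the filter on low counts, so neither was tested.

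Among the NHLH genes, which encode closely related bHLH proteins of maturing neurons, NHLH2 was well above NHLH1. NHLH2 (ENSG00000177551; chromosome 1, 115836377 to 115843917, minus strand) stood at 10.3 and 11.6 CPM in EED-knockout libraries 1 and 2, against 9.08 and 9.51 CPM in wild type libraries 1 and 2. Both knockout values lie above both wild type values, by less than the counting error of a library, whose 95% Poisson interval runs from 8.88 to 11.8 CPM in EED-knockout 1 and from 8.14 to 11.0 CPM in wild type 2. In TPM (a relative measure that also divides by transcript length) the genotypes overlapped, at 3.01 and 2.82 in EED-knockout libraries against 2.85 and 2.62 in wild type libraries. The log2 fold change was 0.23 ± 0.27 (SE), and NHLH2 was not called by edgeR (adjusted p = 0.940). NHLH1 (ENSG00000171786; chromosome 1, 160367067 to 160372848, plus strand) had 10 and 13 counts in EED-knockout libraries, against 17 and 8 in wild type libraries. The wild type libraries of NHLH1 enclose both knockout values. Its 95% interval of the log2 fold change ran from -1.77 to 1.43, so a change within that range, up or down, is not excluded. The NHLH genes shared no 31-base word with another gene.

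ZIC1 and ZIC4 lie on chromosome 3 on opposite strands and overlap. ZIC1 (ENSG00000152977; 147393422 to 147510293, plus strand) stood at 31.9 and 20.3 CPM in EED-knockout libraries 1 and 2, against 19.6 and 20.6 CPM in wild type libraries 1 and 2. EED-knockout 1 alone was high, with a Poisson interval of 29.4 to 34.5 CPM, while EED-knockout 2 lay between the wild type libraries. ZIC1 averaged 26.1 ± 8.17 CPM in EED-knockout and 20.1 ± 0.729 CPM in wild type cells (SD, n = 2 each), a log2 fold change of 0.38 ± 0.27 (SE; 95% interval -0.27 to 1.02; edgeR adjusted p = 0.895).

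ZIC4 (ENSG00000174963; 147386046 to 147406860, minus strand) stood at 11.1 and 8.55 CPM in EED-knockout libraries 1 and 2, against 8.15 and 8.18 CPM in wild type libraries 1 and 2. Both knockout values were above both wild type values, EED-knockout 2 by less than its counting error. The log2 fold change of 0.26 ± 0.29 (SE; 95% interval -0.43 to 0.96) did not pass edgeR's test (adjusted p = 0.937). The direction also held in TPM, at 16.7 and 11.8 in EED-knockout libraries against 10.5 and 10.4 in wild type libraries. That TPM rests in part on ZIC4-011, a 500-base transcript with 11.0 to 24.3 counts per library. It made up 47.3% and 46.2% of ZIC4 TPM in EED-knockout libraries, against 29.9% and 41.2% in wild type libraries. Exons of ZIC1 and ZIC4 overlap over 176 bases on opposite strands, and 149 of the 6801 31-base words of ZIC1 occur in ZIC4 on either strand. The labels leave strandedness of the kit unnamed, so reads from those bases cannot be assigned to either gene with certainty.

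ZIC2 and ZIC5 form the other pair, on chromosome 13, with 9.86 kb between them and opposite strands. ZIC2 (ENSG00000043355; 99981772 to 99986773, plus strand) stood at 17.4 and 28.0 CPM in EED-knockout libraries 1 and 2, against 30.3 and 24.1 CPM in wild type libraries 1 and 2. EED-knockout 1 alone was low, and EED-knockout 2 fell between the wild type libraries. ZIC2 averaged 22.7 ± 7.51 CPM in EED-knockout and 27.2 ± 4.40 CPM in wild type cells (SD, n = 2 each), a log2 fold change of -0.26 ± 0.29 (SE; 95% interval -0.95 to 0.43; edgeR adjusted p = 0.937).

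ZIC5 (ENSG00000139800; 99962964 to 99971909, minus strand) showed the same layout. It stood at 10.01 and 16.7 CPM in EED-knockout libraries 1 and 2, against 16.7 and 16.4 CPM in wild type libraries 1 and 2. Its Poisson interval in EED-knockout 1, from 8.63 to 11.5 CPM, lay below those of the other libraries, which began at 14.6 CPM or higher. The log2 fold change was -0.31 ± 0.31 (SE; 95% interval -1.04 to 0.41), and edgeR did not call it (adjusted p = 0.929).

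**Figure D2:**
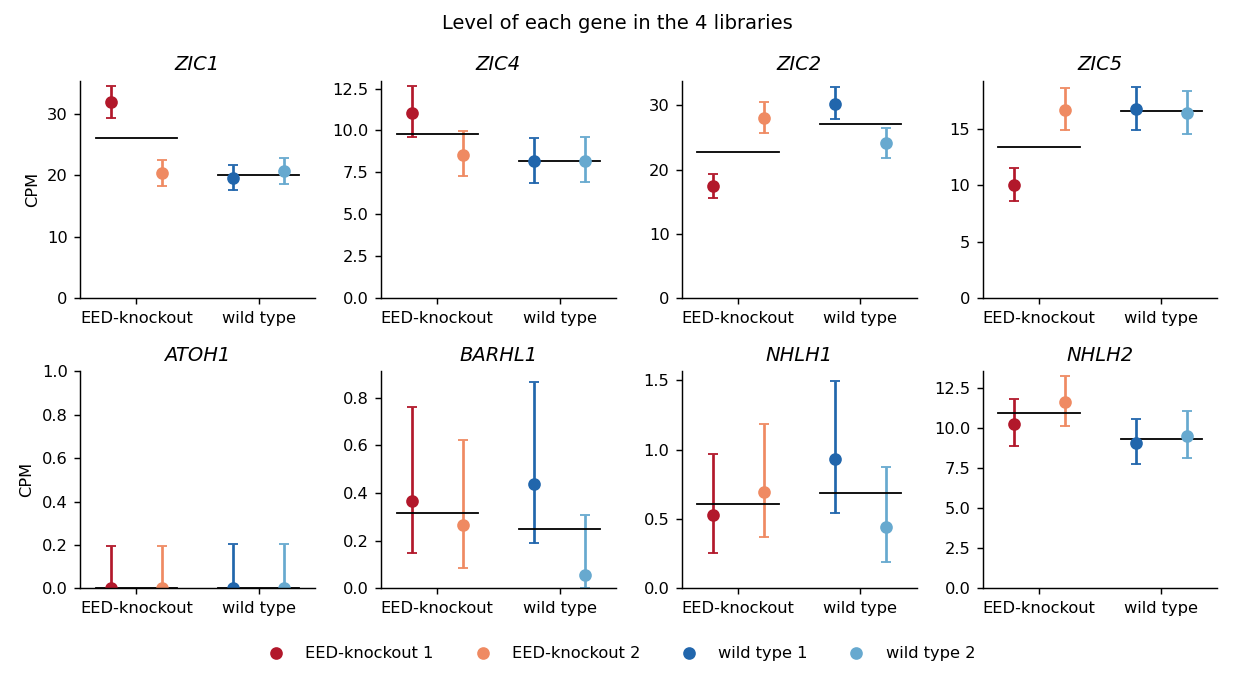
Level of each of the 8 genes (vertical axis, CPM) in the EED-knockout libraries (red) and wild type libraries (blue); bars are 95% Poisson intervals that cover counting error only, and black lines are group means of n = 2. ZIC1 is at 31.9 CPM and ZIC5 at 10.01 CPM in EED-knockout 1, while the other 3 libraries lie from 19.6 to 20.6 CPM and from 16.4 to 16.7 CPM.

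Read library by library, the ZIC pairs lay on opposite sides of the wild type mean in EED-knockout 1 and near it in EED-knockout 2. Against the wild type mean on the log2 scale, EED-knockout 1 was at 0.66 for ZIC1 and 0.43 for ZIC4, but at -0.63 for ZIC2 and -0.72 for ZIC5. EED-knockout 2 was at 0.01, 0.07, 0.05 and 0.01 for the same genes in that order. Wild type libraries, which themselves form the wild type mean, differed from it by at most 0.17, for ZIC2. EED-knockout 1 was the highest library for 2 of the 6 tested members, as for 31.2% of all tested genes, and the lowest for 2, as for 30.9% of all, so the members' counts lie near the background. With 1 library showing the shift, the genotype and that library cannot be told apart.

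**Figure D3:**
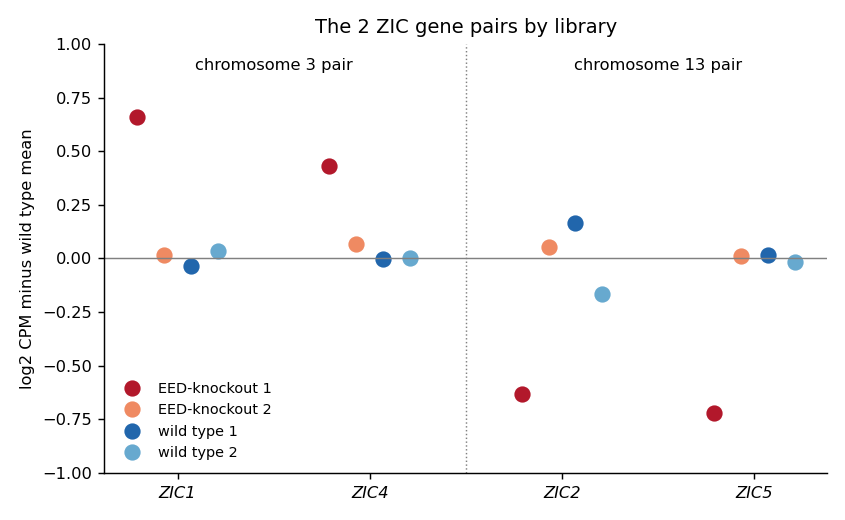
Log2 CPM of the 4 ZIC genes in each library minus the wild type mean (vertical axis), for the chromosome 3 pair and the chromosome 13 pair. EED-knockout 1 lies at 0.66 and 0.43 for ZIC1 and ZIC4 and at -0.63 and -0.72 for ZIC2 and ZIC5, and EED-knockout 2 lies within 0.07 of the wild type mean.

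The partners of each pair resembled each other over the 4 libraries. The root mean square difference of centred log2 CPM was 0.111 between ZIC1 and ZIC4 and 0.112 between ZIC2 and ZIC5, against 0.474 to 0.599 between genes of different pairs. Among 12659 protein-coding genes compared, 336 were nearer to ZIC1 than ZIC4 was, and 923 were nearer to ZIC4 than ZIC1 was. For the chromosome 13 pair, 438 were nearer to ZIC2 than ZIC5 was, and 248 were nearer to ZIC5 than ZIC2 was. The genes nearest in pattern were ARHGEF40 for ZIC1 (0.0123), TUBGCP2 for ZIC4 (0.00626), CNKSR2 for ZIC2 (0.00720), ZNF124 for ZIC5 (0.0173), ZNF501 for NHLH1 (0.0323) and GMPPA for NHLH2 (0.00427). With 4 libraries such closeness is a description only.

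Genes around the pairs were read in the same way, as signed medians in which genes above and below the wild type mean offset each other. Within 10 Mb of ZIC1, the median difference of 82 tested genes from the wild type mean, less that of all genes, was 0.05 in EED-knockout 1 and -0.01 in EED-knockout 2. Within 10 Mb of ZIC2 and ZIC5, 50 tested genes had a median of -0.09 in EED-knockout 1 and 0.09 in EED-knockout 2. Single neighbours lay further out: in EED-knockout 1, RP11-12G12.7, chosen after its values were seen and 99.3 kb from ZIC2, was at -0.97 and PCCA at -0.48. The nearest protein-coding genes around the chromosome 13 pair were PCCA, a subunit of propionyl-CoA carboxylase, with a log2 fold change of -0.43 ± 0.27 (SE; edgeR adjusted p = 0.884), and CLYBL, a mitochondrial lyase, at 0.34 ± 0.49 (SE; adjusted p = 0.955). On chromosome 3, PLSCR5, the nearest on the left of both genes, had 0 counts in all libraries, and AGTR1, an angiotensin receptor gene on the right, had 10 and 4 counts in EED-knockout libraries against 1 and 4 in wild type libraries. ZIC4-AS1, which overlaps ZIC4 on the opposite strand, had 0 counts in all libraries. Its exons share 268 bases with those of ZIC4. As strandedness of the kit is unnamed, reads from those bases cannot be assigned to either gene with certainty.

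The other members had neighbours of their own. BARHL1 lies 2.73 kb from DDX31, a helicase gene with 861 and 967 counts in EED-knockout libraries against 1128 and 754 in wild type libraries, and 8.87 kb from CFAP77, which had 28 and 20 counts against 6 and 9 (log2 fold change 1.60 ± 0.61, SE; edgeR adjusted p = 0.808). NHLH1 lies 8.12 kb from NCSTN, a gamma-secretase subunit gene, and 27.7 kb from the planar polarity gene VANGL2, whose log2 fold changes were -0.20 and -0.02. The 268 tested genes within 10 Mb of NHLH1 had a median difference of -0.32 in EED-knockout 1, whose part in the NHLH1 value was not tested. NHLH2 lies between CASQ2 (-1.42 ± 0.85, SE) and SLC22A15 (-0.05 ± 0.29, SE), and SMARCAD1, to the right of ATOH1, was at -0.43 ± 0.23 (SE).

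Over all genes, edgeR called 0 of 18349 higher and 0 lower in EED-knockout at an adjusted p under 0.05, which is 0.0% in each direction, and none of the 6 tested members. At an unadjusted p under 0.05 there were 0 members, with 2.85% of all genes higher and 3.05% lower. The smallest unadjusted p of a member was 0.214, for ZIC1. DESeq2 called 0.142% of genes higher and 0.229% lower, and 0 members. In sign, 3 members had a positive and 3 a negative log2 fold change, and their median was 0.03, beside 0.01 over all tested genes. The knockout pair exceeded both wild type libraries in 2 members, ZIC4 and NHLH2, and below in 0, where 17.8% and 18.0% of all tested genes did so. Without TMM factors ZIC1 joined them, at 20.92 CPM in EED-knockout 2 against 20.91 CPM in wild type 2, and the shares of all genes were 20.4% and 15.7%. An exact permutation test of 2 against 2 libraries cannot give a two-sided p below 0.333.

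**Figure D4:**
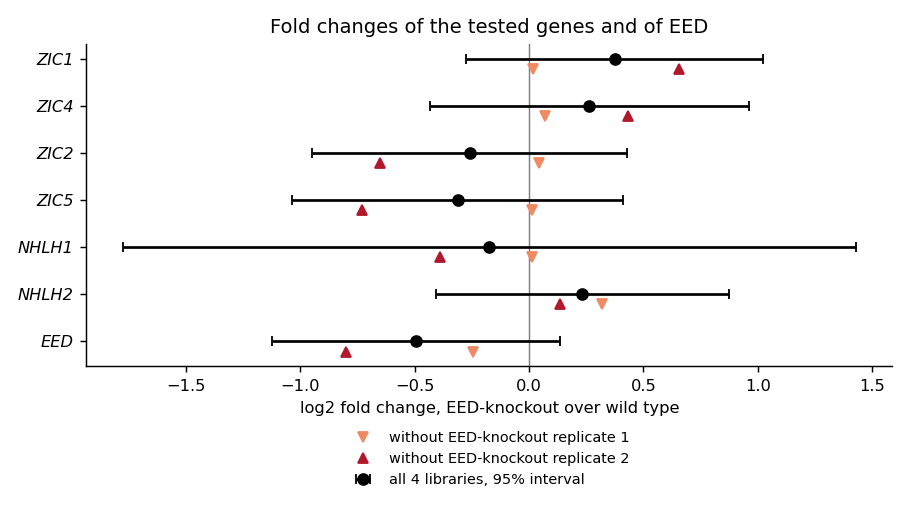
Log2 fold change of EED-knockout over wild type (horizontal axis) for the 6 tested members and EED, with 95% intervals of the edgeR fit (black) and the values without EED-knockout 1 (orange) or without EED-knockout 2 (red). Every interval crosses 0, and without EED-knockout 1 the 4 ZIC genes lie between 0.01 and 0.07.

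Levels of the genes relative to each other were read in TPM. In every library ZIC5, NHLH2, NHLH1, BARHL1 and ATOH1 followed the other ZIC genes in that order. ZIC1 was at 50.3 and 25.3 TPM in EED-knockout libraries 1 and 2, against 22.2 and 31.3 TPM in wild type libraries 1 and 2. ZIC2 was at 16.1 and 21.9 TPM in EED-knockout libraries, against 24.0 and 25.3 TPM in wild type libraries, so the order of ZIC1 and ZIC2 turned between wild type 1 and the others and does not stand beyond their spread. ZIC2 does not overlap between genotypes in TPM, although it does in CPM. Its main transcript ZIC2-001 alone did overlap in TPM, at 7.74 and 12.5 in EED-knockout libraries against 12.8 and 10.5 in wild type libraries. The rest of the ZIC2 TPM came from short transcripts with few counts. ZIC5 stood at 3.21 and 5.29 TPM in EED-knockout libraries against 4.93 and 5.22 TPM in wild type libraries, next to NHLH2, from which EED-knockout 1 separates it least.

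The TPM of a gene depends on how kallisto divides its counts between transcripts. Full-length ZIC1-001 (5241 bases, from 147409384) carried 69.9% and 77.9% of ZIC1 counts in EED-knockout libraries 1 and 2, against 76.4% and 67.7% in wild type libraries 1 and 2. It made up only 12.3% and 17.4% of ZIC1 TPM in EED-knockout libraries, against 17.1% and 12.3% in wild type libraries. The remainder was mostly ZIC1-002 and ZIC1-003, short models that start at 147393895 and 147393422, upstream of ZIC1-001 and within the span of ZIC4. Within ZIC1, ZIC1-001 had 423 and 296 counts in EED-knockout libraries against 272 and 252 in wild type libraries, and ZIC1-003 had 97.0 and 45.0 against 43.0 and 65.0. EED-knockout 1 was thus the highest library for both. ZIC2-001 carried 92.9% to 96.3% of ZIC2 counts but 41.6% to 57.3% of ZIC2 TPM, and ZIC5 and NHLH1 have 1 transcript each in the files.

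ZIC4 counts were spread over many models. ZIC4-005, a retained intron, had 44.5 and 43.0 counts in EED-knockout libraries against 23.5 and 36.3 in wild type libraries, and the coding ZIC4-001 had 44.9 and 31.8 against 20.5 and 31.1. NHLH2-001, the single-exon model, had 151 and 194 counts in EED-knockout libraries against 108 and 140 in wild type libraries. The shorter NHLH2-002 had 43.6 and 22.8 against 57.4 and 32.1. NHLH2-001 lay above wild type in both knockout libraries, whereas the genotypes overlapped for NHLH2-002. Of 35 transcripts of the 8 genes, 10 had 0 counts in all libraries and 17 were tested. EdgeR called 0 of the 17 and 0 of 56858 transcripts tested, with 0 and 2636 at an unadjusted p under 0.05, and DESeq2 was not run on transcripts.

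**Figure D5:**
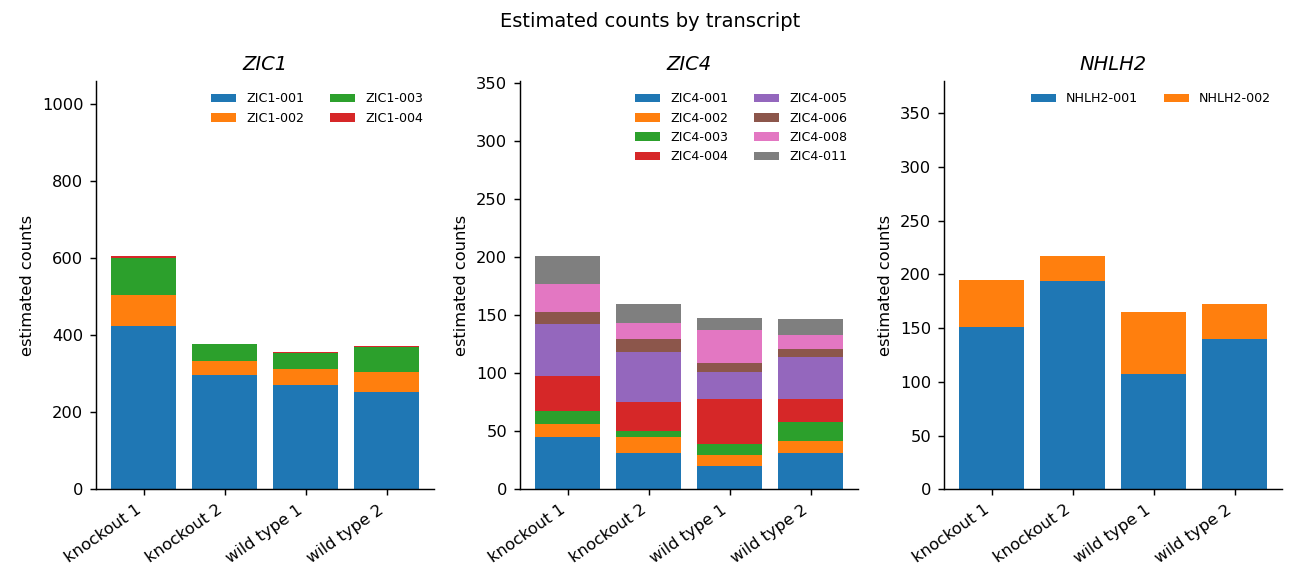
Estimated counts (vertical axis) by transcript for ZIC1, ZIC4 and NHLH2 in EED-knockout libraries (left bars) and wild type libraries (right bars), for transcripts with more than 10 counts in total. ZIC1-001 is the largest part of ZIC1 in every library, from 252 to 423 counts, while ZIC4 is divided among 8 models.

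The wider granule lineage was partly present. Of 32 further rhombic lip and granule genes, 24 were tested and 8 were not. PAX6, a factor of granule progenitors, had 373 and 383 counts in EED-knockout libraries against 311 and 345 in wild type libraries, and EN2, a midbrain and cerebellar homeobox gene, had 324 and 422 against 407 and 399. The early neuronal factor NEUROD1 had 3 and 0 counts in EED-knockout libraries against 5 and 4 in wild type libraries. GABRA6, a receptor subunit of mature granule neurons, had 0 and 0 against 1 and 0. The list did not divide by maturity, however. The neuronal tubulin gene TUBB3 had 1858 and 2509 counts in EED-knockout libraries against 2337 and 1619 in wild type libraries. LMX1A, a rhombic lip factor, had 0 and 5 against 0 and 9. Of the 24 tested, 18 had a positive log2 fold change, with a median of 0.17 beside 0.01 over all genes. In 9 of them both wild type libraries were exceeded by the knockout pair, and in 0 was the knockout pair below, where 17.8% and 18.0% of all tested genes did so. EdgeR called 0, with 3 higher at an unadjusted p under 0.05 and 0 lower, beside 2.85% and 3.05% of all genes.

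LHX2, a homeodomain factor of progenitors, stood at 18.8 and 26.0 CPM in EED-knockout libraries 1 and 2, against 12.4 and 10.7 CPM in wild type libraries (log2 fold change 0.96 ± 0.27, SE; edgeR adjusted p = 0.799). UNCX, another homeodomain factor, had 26 and 15 counts in EED-knockout libraries against 0 and 4 in wild type libraries. CBLN1, a secreted synapse organiser of granule neurons, had 12 and 69 against 4 and 9, resting mainly on EED-knockout 2. BOC, a hedgehog co-receptor of granule progenitors, had 343 and 357 against 243 and 255. These 4 genes were named for the smallest unadjusted p of the list, so their separation in CPM partly follows from that choice. The knockout pair was above both wild type libraries in CPM for 17.8% of all tested genes. In TPM the groups overlapped for CBLN1 and BOC, and none of the 4 passed the test over all genes.

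Partners and inhibitors of ATOH1 and NHLH proteins each had counts in at least 1 library, and HES5 and HEYL had too few to be tested. Of 14 such genes 12 were tested, 11 with a positive log2 fold change, and the median was 0.48 beside 0.01 over all genes. The knockout pair exceeded both wild type libraries in 7 of the 12 and was below in 0, where 17.8% and 18.0% of all tested genes did so. EdgeR called 0. Beside 2.85% and 3.05% of all genes, 1 was higher and 0 lower at an unadjusted p under 0.05. That gene was HES1, a Notch-induced repressor of proneural genes, at 55.0 and 88.5 CPM in EED-knockout libraries against 38.1 and 45.1 CPM in wild type libraries (log2 fold change 0.79 ± 0.27, SE; edgeR adjusted p = 0.808). The ID genes encode inhibitors that hold E proteins away from proneural factors. ID3 stood at 101 and 118 CPM in EED-knockout libraries against 44.8 and 90.3 CPM in wild type libraries, and ID2 at 8.37 and 10.3 against 4.24 and 6.86 CPM. ID1 overlapped, at 51.5 and 109 CPM against 40.8 and 54.3 CPM. Of the E proteins that pair with these factors, TCF3 was at a log2 fold change of 0.11, TCF4 at 0.37 and TCF12 at 0.30, and the ligase HUWE1, which marks ATOH1 for degradation, was at 0.01.

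Of 9 bHLH genes related to ATOH1, only ATOH8 was tested, at 15.1 and 4.81 CPM in EED-knockout libraries against 2.86 and 6.36 CPM in wild type libraries, with overlapping groups and 1 high library. OLIG3, a rhombic lip factor, had 12 and 4 counts in EED-knockout libraries against 0 and 0 in wild type libraries. All 6 GLI and GLIS genes, the zinc finger relatives of the ZIC family, were tested. Their log2 fold changes had a median of 0.30, beside 0.01 over all tested genes. GLI1, a hedgehog target, had the largest at 1.60 ± 0.64 (SE, edgeR adjusted p = 0.823). Its counts were 28 and 23 in EED-knockout libraries against 11 and 5 in wild type libraries. GLI2 was at 0.35 and GLIS1 at 0.25, while GLI3 and GLIS3 were each at 0.01. GLIS2, at 0.40, had overlapping groups, with 5.64 and 25.1 CPM in EED-knockout libraries against 9.03 and 14.2 CPM in wild type libraries.

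The line was set against markers of medulloblastoma subgroups and of other cerebellar lineages. Of the 5 hedgehog-subgroup markers, ATOH1 was at 0 and the other 4 were expressed: SFRP1 at 149 and 57.0 CPM in EED-knockout libraries against 56.0 and 79.2 CPM in wild type libraries, HHIP at 29.1 and 3.79 against 11.9 and 9.62 CPM, PDLIM3 at 7.95 and 16.4 against 9.85 and 12.3 CPM, and EYA1 at 3.48 and 3.58 against 5.17 and 5.36 CPM. Only EYA1 did not overlap between genotypes, with the knockout pair below. Over all tested genes the knockout pair was below in 18.0% and above in 17.8%. SFRP1 and HHIP were highest, and PDLIM3 lowest, in EED-knockout 1. Of all 21 subgroup markers, which include these 5, 17 were tested. At an unadjusted edgeR p under 0.05, 1 was higher, TNC, and 0 lower, beside 2.85% and 3.05% of all tested genes. TNC, a matrix protein outside those 5, stood at 720 and 649 CPM in EED-knockout libraries against 358 and 467 CPM in wild type libraries. GAD1, also outside those 5, was at 8.43 and 14.4 CPM in EED-knockout libraries against 7.16 and 8.96 CPM in wild type libraries. Of the 21 markers, 4 were not tested, and ATOH1 and KHDRBS2 were at 0 in all libraries. The levels were not compared with those of tumours, so no subgroup was assigned to the line.

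Of 12 markers of the GABAergic cerebellar lineage 4 were tested, and the summed level of all 12 was 45.6 and 104 TPM in EED-knockout libraries against 54.5 and 59.0 TPM in wild type libraries. Most of that sum in 3 of the 4 libraries, and the largest single share in every one, was LHX1, a homeodomain factor, at 21.8 and 84.6 TPM in EED-knockout libraries against 41.1 and 39.7 TPM in wild type libraries, with overlapping groups. PTF1A, which starts that lineage, had 6 and 0 counts in EED-knockout libraries against 0 and 1 in wild type libraries. PAX2, an interneuron precursor factor, had 101 and 115 counts against 6 and 32 (log2 fold change 2.44 ± 0.70, SE; edgeR adjusted p = 0.799). Of 10 glial markers 8 were tested, and all 10 summed to 21.9 and 19.9 TPM in EED-knockout libraries against 14.2 and 18.4 TPM in wild type libraries, and SOX10 was at 0 in all libraries. At an unadjusted edgeR p under 0.05, PAX2 was higher in the GABAergic list and 0 of its genes were lower. In the glial list, SLC1A2 was higher and SLC1A3 lower at that threshold, both glutamate transporters. Over all tested genes, 2.85% were higher and 3.05% lower at the same threshold. After adjustment edgeR called 0 markers of either list. The part of these lists in the values of the 8 genes was not tested.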

How the data were processed

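RNA-seq of total RNA was made from 2 EED-knockout and 2 wild type samples of Daoy cells, with TRIZOL extraction, RNeasy columns and an Illumina kit, per the labels' protocols. The authors deposited estimated counts and TPM per transcript. The submitters' processing notes name kallisto 0.43.1 and hg38, and no annotation release or kallisto setting is named. Library totals were 17836112 to 19106382. Estimated counts were summed per gene, rounded and tested with edgeR 4.0.16 (R 4.3.3) by its quasi-likelihood F test, two-sided, with TMM factors, filterByExpr (minimum count 10, minimum total 15) and no covariate. This left 18349 genes, over which p-values were adjusted (Benjamini-Hochberg, threshold 0.05). CPM use TMM-scaled totals. Tests were checked on simulated data. Positions are from GENCODE 29 (GRCh38), and promoters from RefSeq (GRCh38.p14). The 31-base words were taken from GENCODE 29 transcripts. Intervals and the floor of 3 counts cover counting error only.

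The members and gene lists were chosen with earlier results of these data known. Named genes were all members, EED, up to 4 genes with the smallest p of each list, and nearest neighbours. Up to 3 genes nearest in pattern were added, among those with mean log2 CPM above 1. List members and genes outside this rule were chosen after their values were seen. Among them are NEUROD1, GABRA6, PAX6, EN2, TUBB3, LMX1A, HES5, HEYL, OLIG3, KHDRBS2, PTF1A and SOX10. Alternatives comprised other normalizations, filters and tools (DESeq2 1.42.0, limma 3.58.1), TPM on a log2 scale, a replicate block, and leaving out each library. Some genes near the members are not reported here.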

Additional observations from a re-analysis of the deposited data

How the results depend on the processing

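The 6 tested members and EED were recomputed under 15 alternatives, 1 of them chosen after seeing the data, giving 89 values of members (NHLH1 did not pass the stricter count filter). None passed the threshold under any of them, and 5 of the 89 changed sign. Without EED-knockout replicate 1, the log2 fold change was 0.046 for ZIC2, 0.012 for ZIC5 and 0.013 for NHLH1. Without wild type replicate 1 it was 0.46 for NHLH1, whose range over the libraries left out was -0.62 to 0.46, and with length-scaled TPM counts it was -0.016 for NHLH2. The cause was not tested. Leaving out EED-knockout replicate 1 also brought ZIC1 to 0.02 and ZIC4 to 0.07, against 0.66 and 0.43 without EED-knockout replicate 2, where ZIC2 was at -0.65 and ZIC5 at -0.73. EED ranged from -0.80 to -0.24 and kept its sign in all 15.

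Over all genes DESeq2 called 26 higher and 42 lower, where edgeR called 0. Leaving out 1 library, with the filter applied again and the lone library assumed to vary like the other genotype, gave 0 to 15 genes higher and 0 to 10 lower: 15 and 8 without EED-knockout replicate 1, 9 and 10 without wild type replicate 2, and 0 when EED-knockout replicate 2 or wild type replicate 1 was left out. With the replicate block edgeR called 0 higher and 0 lower genes, and 0 members. Same-numbered libraries deviated from their group means in opposite directions over 14047 genes (Pearson's r -0.192, across genes), so crossed numbers were tried as a replicate block too, with 0 calls. Depth limits ATOH1, BARHL1 and NHLH1, which had 17 counts or fewer in every library.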
